A study of Rattus norvegicus with 16 samples.

Results

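The 5 genes described here encode neuronal intermediate filament proteins: the light, medium and heavy neurofilament subunits (Nefl, Nefm and Nefh), alpha-internexin (Ina) and peripherin (Prph). They were taken by symbol from a deposited table of an RNA immunoprecipitation (RIP) of rat dorsal horn, and all 5 listed symbols had a row among its 8671 genes. Their peaks of N4-acetylcytidine (ac4C, an acetylated cytidine in RNA) were then read from 6 deposited peak lists by gene identifier. No rule on measured values picked the genes, but they were listed with earlier results of these data known. A row in the RIP table itself required a log2 fold above 1.

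The tissue was the dorsal horn of the spinal cord of rats labelled as wild type, either normal (controls) or with bone cancer pain. Strain, sex, age and the way the tumour was induced are not given in the labels. For ac4C there were 3 replicates in each group, every one an immunoprecipitated library (IP) and the input it came from (12 libraries), and 1 peak list was deposited per replicate. The peak files of the second group bear the letters CFA where the labels say bone cancer pain, and the labels were followed. The RIP had 2 IP and 2 input libraries, all from bone cancer pain, so it offers no comparison with controls. Its antibody target is not named in the sources used here, and the extraction protocol given for these libraries is the one given for the ac4C libraries.

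Neurofilaments are the main cytoskeletal polymer of large axons, and their amount is known to set axon calibre and so conduction speed. Nefl forms the core to which Nefm and Nefh, with long and heavily phosphorylated tails, are added. Ina co-assembles with them in central neurons, and Prph is known from neurons with axons in peripheral nerves, such as motor neurons and primary sensory neurons. In the spinal cord these mRNAs come from neurons, while glia express other intermediate filaments such as Gfap and Vim.

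A peak here means one with a false discovery rate (FDR) of at most 0.05 in the authors' own column. At that limit the lists held 899 to 1240 peaks. As deposited, bone cancer pain list 1 was far longer (50417 peaks against 1173 to 2416 in the others), and 81.1% of the 8645 genes with a symbol in the RIP table had a peak in it. Ina was the only filament gene among them, and Nefl, Nefm, Nefh and Prph had none in that list even without the limit. The named genes were also put in 10 equal bins by RIP input signal, a scale whose relation to transcript length is not stated. In the highest bin (865 genes), 35.5% had a peak in that list as deposited, against 99.2% in the lowest bin. Nefl, Nefm, Nefh and Ina lay in the highest bin and Prph in the next. Read depth is unknown for all libraries, and a gene without a peak is one where none was called.

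Of the 5 genes, 4 carried an ac4C peak in at least 1 of the 6 lists, with 14 peaks in all (9 in controls, 5 in bone cancer pain). Control 3 held 6 of the 9 control peaks, and without that list there were 3 control peaks against 5. All genes together had 916, 1074 and 1003 peaks in the control lists and 919, 1240 and 899 in the bone cancer pain lists. Among all genes with a symbol in the RIP table, 36.9% had a peak in at least 1 list, and 57.8% of the 963 whose input signal reached that of Prph did. Nefl, Nefm and Ina had peaks in at least 2 lists, as did 12.6% of named genes. Prph had no peak in any list.

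**Figure D1:**
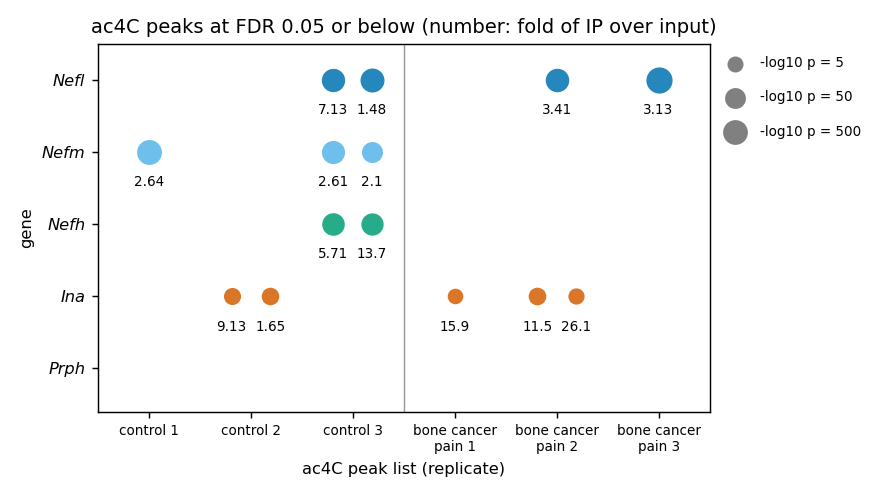
Each point is an ac4C peak at an FDR of at most 0.05, by gene (rows) and peak list (columns, 3 control and 3 bone cancer pain replicates); point size grows with -log10 of the authors' p-value and the number is the authors' fold of IP over input. Nefm and Nefh peaks stand in control columns alone, Nefl and Ina peaks in both groups, and the Prph row is empty.

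Nefl, the subunit on which neurofilament assembly depends, had peaks in control 3, bone cancer pain 2 and bone cancer pain 3. Its peaks lay on the plus strand of chromosome 15 (rn6, as are all positions here). In control 3 a peak from 44799929 to 44800108 had a fold of 7.13, and in bone cancer pain 2 a peak from 44799840 to 44800256 had a fold of 3.41. The wider bone cancer pain peak held all 180 bases of the control peak, so this place was called in 1 replicate of each group.

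The other Nefl peaks lay further along the RNA, in different places. Bone cancer pain 3 had a peak of 2 blocks, 31 and 148 bases long, from 44801515 to 44802076, with a fold of 3.13 and a -log10 p of 1260. The second control 3 peak, also of 2 blocks, began 59 bases beyond it, at 44802136, ended at 44802878 and had a fold of 1.48. Nefl peaks were thus called in 2 of 3 bone cancer pain replicates and 1 of 3 controls, and the groups overlapped (Fisher's exact test, two-sided p = 1). With 3 lists a group Fisher's exact test cannot go below p = 0.1, so no gene could pass 0.05.

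Nefm, whose long tail takes part in the spacing of filaments, had peaks in controls 1 and 3 and in no bone cancer pain list. On the minus strand of chromosome 15, the control 1 peak ran from 44855939 to 44856209 with a fold of 2.64, and the control 3 peak from 44855939 to 44856089 with a fold of 2.61. Read in the direction of the RNA, both ended at the same base, and the shorter lay within the longer over all its 151 bases. A second peak in control 3, from 44860154 to 44860334, lay upstream in the RNA with a fold of 2.1.

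The Nefm counts of 2 lists against 0 gave a two-sided Fisher's exact p of 0.4. Among all named genes, 1.70% were called this way (at least 2 controls, 0 bone cancer pain), and 1.80% the opposite way, which fitted none of the 5 filament genes. The Nefm values were already known from an earlier account of these data, so they are a description. Nefl and Nefm are neighbours: no protein-coding gene lies between them in the GRCr8 gene table, and 53060 bases separated the last Nefl peak from the first Nefm peak.

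Nefh, the heaviest subunit, had peaks in control 3 alone. Both lay on the minus strand of chromosome 14 and both were made of 2 blocks. The peak from 85187214 to 85188523 had blocks of 117 and 63 bases, 1130 bases apart, and a fold of 5.71. The peak from 85188612 to 85190842 had blocks of 49 and 220 bases, 1962 bases apart, and a fold of 13.7. The 2 peaks stood 88 bases apart. With 1 control list against 0, Fisher's exact p was 1, and the result rests on that list.

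Ina, which joins the neurofilament triplet in central axons, had the place seen in most lists. Its single-block peaks lay on the plus strand of chromosome 1 within 450 bases, from 266782995 to 266783444, in control 2, bone cancer pain 1 and bone cancer pain 2. The control 2 peak (266783054 to 266783324) had a fold of 9.13. The bone cancer pain 1 peak (266783204 to 266783324) had a fold of 15.9 and lay wholly within it. Bone cancer pain 2 had 2 peaks there, from 266782995 to 266783174 with a fold of 11.5 and from 266783264 to 266783444 with a fold of 26.1, which shared 121 and 61 bases with the control peak.

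The bone cancer pain 1 peak of Ina had an FDR of 0.0209, the highest among the filament peaks used. Control 2 also had a weak 3-block Ina peak with a fold of 1.65, spread from 266783953 to 266792335 over 151 exonic bases. Without the FDR limit, bone cancer pain 1 added an Ina peak of 1349 bases, from 266781617 to 266782965, with a fold of 10.6 and an FDR of 0.0562. Ina was thus called in 2 of 3 bone cancer pain replicates and 1 of 3 controls (Fisher's exact test, two-sided p = 1), and the groups overlapped.

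Each filament gene with peaks in at least 2 lists (Nefl, Nefm and Ina) had peaks of different lists that overlapped, in 6 pairs of peaks in all. Of the 1088 named genes with a peak in at least 2 lists, 30.3% had such an overlap of at least 1 base on the same strand. Of these 6 pairs, 1 joined lists of controls, 1 joined lists of bone cancer pain and 4 joined a control list with a bone cancer pain list.

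**Figure D2:**
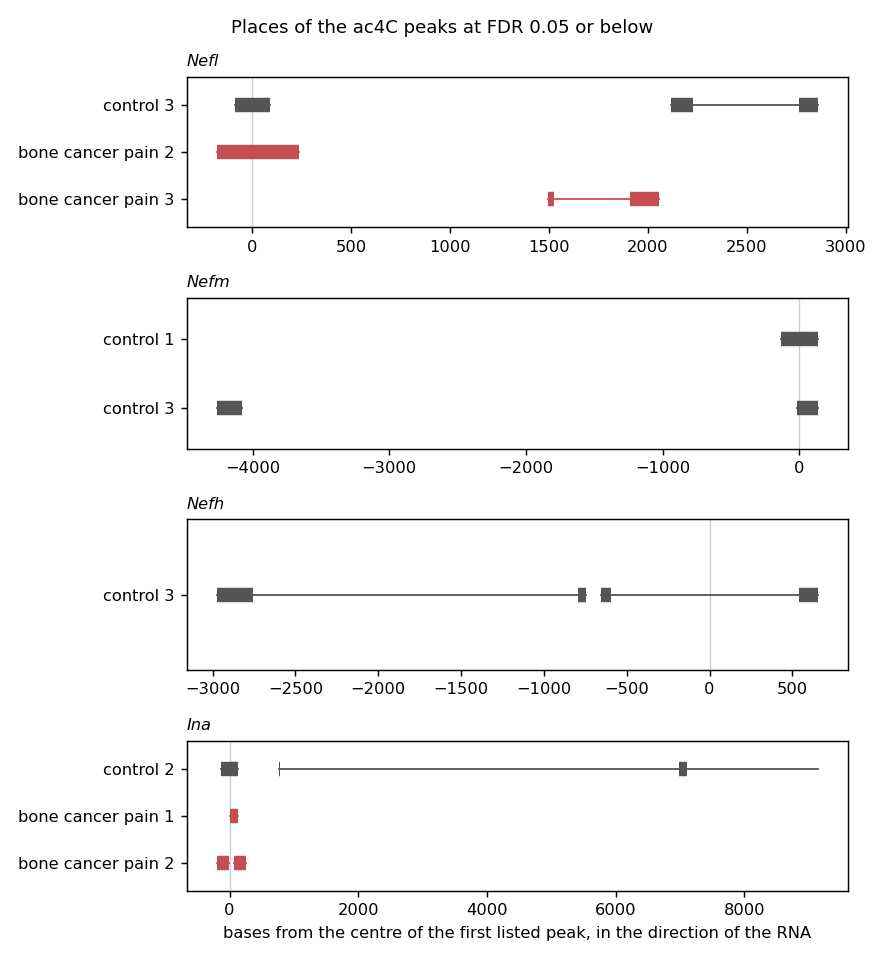
Blocks of the ac4C peaks of 4 filament genes along the RNA, in bases from the centre of the first listed peak, with 1 row per list (grey, control; red, bone cancer pain) and thin lines across the gaps between blocks of 1 peak. The Nefl peaks of control 3 and bone cancer pain 2 overlap, as do the Nefm peaks of controls 1 and 3 and the Ina peaks of control 2 and bone cancer pain 1 and 2; Nefh has 1 list.

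The peaks of the neurofilament triplet combined very small p-values with low folds. All 9 peaks of Nefl, Nefm and Nefh ranked among the 100 smallest p-values of their list, with the Nefl peaks at rank 7 and 3 in control 3, rank 8 in bone cancer pain 2 and rank 4 in bone cancer pain 3. Of the 14 filament peaks, 13 had a fold below the median of their list, where the medians were 15.6 to 28.7. The exception was the Ina peak with a fold of 26.1 in bone cancer pain 2, above that list's median of 20.9. The Ina peaks differed from the triplet in p-value, with a -log10 p of 4.2 to 10.3 against 53.4 to 1260 for the triplet.

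Over all named genes, fold and p-value also differed between bins of RIP input signal. In the highest of the 10 bins of RIP input signal, the strongest peaks of 514 genes had a median fold of 9.23 and a median -log10 p of 26.4. In the lowest bin, 170 genes had medians of 31.4 and 8.54. Ina lay in the highest bin too, with the -log10 p of 4.2 to 10.3 given above. The RIP input came from other libraries than the ac4C lists, and the part of RNA abundance in the folds and p-values of the filament peaks was not tested.

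**Figure D3:**
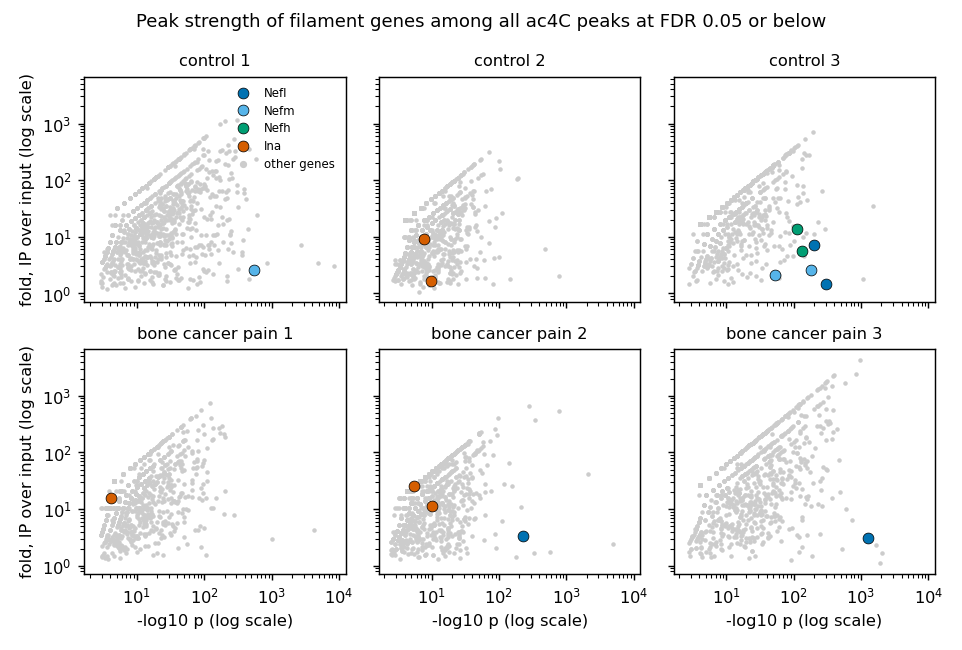
Fold of IP over input against -log10 p, both on log scales, for every ac4C peak at an FDR of at most 0.05 in each of the 6 lists (grey, other genes; coloured, filament genes). The Nefl, Nefm and Nefh peaks lie to the lower right in the 4 lists that hold any (controls 1 and 3, bone cancer pain 2 and 3), with folds of 1.48 to 13.7. The 5 Ina peaks stand in control 2 and bone cancer pain 1 and 2 with a -log10 p of 4.2 to 10.3. For 3 of them the -log10 p lies above their list's median -log10 p. By fold, only the Ina peak at 26.1 in bone cancer pain 2 lies above its list's median, which is 20.9.

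In the RIP from bone cancer pain, every filament gene had a higher signal in both IP libraries than in both inputs. The table's own threshold (log2 fold above 1) required a higher mean signal in IP, though not that each library be apart. The signal is normalised by the authors in a unit their header does not state, and its relation to transcript length is not stated. Bins, shares and distances that set genes side by side are therefore positions on the authors' scale, not transcript levels per length. The Nefl signal was 146 and 163 in inputs 1 and 2, and 728 and 722 in IP 1 and 2. For Nefm it was 120 and 132 in the inputs, and 522 and 526 in the IP libraries. The IP libraries differed from each other by less than the inputs did for both genes, and the 2 kinds of library did not overlap.

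The Nefh signal was 87.2 and 109 in the inputs, and 471 and 473 in the IP libraries. The Ina signal was 28.7 and 31.9 in the inputs, and 79.8 and 81.2 in the IP libraries. The Prph signal was 11.1 and 12.2 in the inputs, and 49.8 and 50.8 in the IP libraries. For each of the 5 genes input 2 was above input 1, by 1.10 to 1.25 times, with Nefh the furthest apart. Over the whole table input 2 was also higher, by 1.06 times in the sum and 1.07 times in the median.

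**Figure D4:**
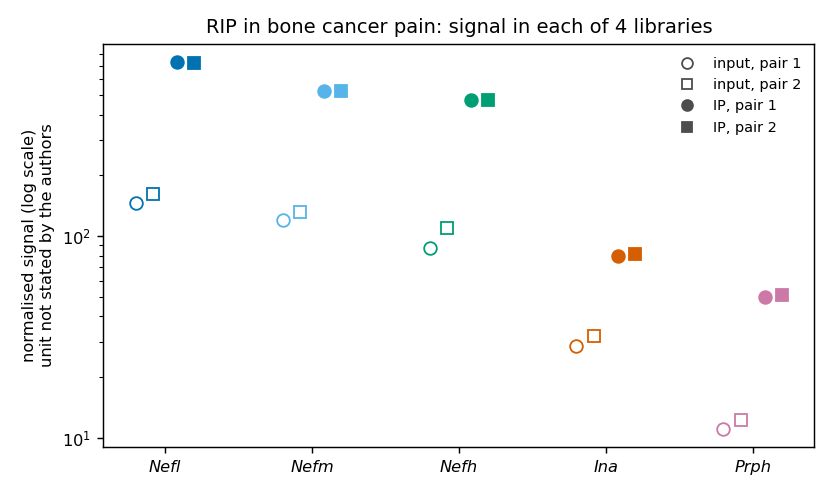
Normalised signal (log scale) of the 5 filament genes in the 2 input (open) and 2 IP (filled) libraries of the RIP in bone cancer pain, circles for pair 1 and squares for pair 2. Each gene's IP points coincide closely and lie above its inputs, and the gap is smallest for Ina, from 28.7 and 31.9 to 79.8 and 81.2.

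Ina had the lowest RIP fold of the 5 genes. In the authors' deposited table its log2 fold of IP over input was 1.41, and only 3.18% of the table's genes had a lower one. The other 4 lay close together in the authors' deposited table, at 2.05 for Nefm, 2.11 for Prph, 2.23 for Nefl and 2.26 for Nefh. The median of the 5 was 2.11 against 2.40 for all 8671 genes, and each of the 5 lay below that median. The FDR in the authors' deposited table was 2.77e-129 for Nefl, 1.66e-118 for Nefm, 5.48e-78 for Nefh, 9.10e-77 for Prph and 1.53e-52 for Ina.

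The separation of Ina held in each pair of libraries (IP and input of the same number). Its log2 fold was 1.48 in pair 1 and 1.35 in pair 2, and Nefm, the next lowest, had 2.12 and 1.99, a difference of 0.64 in both pairs. The remaining neighbours in the order were not apart beyond the spread between pairs. Prph had 2.16 and 2.06, Nefl 2.32 and 2.15, and Nefh 2.43 and 2.11, so that Nefh was above Nefl in pair 1 and below it in pair 2. All 5 genes had a higher fold in pair 1, by 0.11 (Prph) to 0.32 (Nefh), and 60.2% of all genes of the table did.

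**Figure D5:**
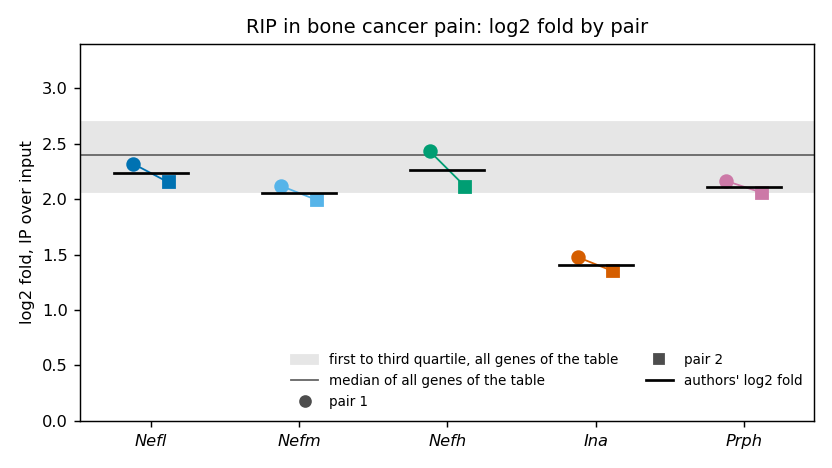
Log2 fold of IP over input for the 5 filament genes in pair 1 (circles) and pair 2 (squares) of the RIP, with the authors' log2 fold (black bars) and the median and quartiles of all 8671 genes (line and grey band). Ina lies at 1.35 to 1.48, below the band's lower edge of 2.07 and apart from the other 4 genes.

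Ina held a smaller share of the filament signal in both IP libraries than in both inputs, and Nefh a larger one. Ina made up 7.29% and 7.11% of the summed signal of the 5 genes in the inputs and 4.31% and 4.38% in the IP libraries. Nefh made up 22.2% and 24.4% in the inputs and 25.4% and 25.5% in the IP libraries. The 5 genes together held 0.640% and 0.689% of the table's summed signal in the inputs, and 0.522% and 0.512% in the IP libraries. The sums cover the genes of the table alone. The shares restate the signals and folds given above and are not a separate result.

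The genes nearest to each filament gene over the 4 RIP libraries (Euclidean distance of log2 signals among protein-coding genes, taken from the first 3 of each) were as follows. Genes near Nefl included Calm3 (calmodulin) and Vamp1 (a synaptic vesicle protein), at distances of 0.35 and 0.50. Nefm stood nearest to Atp1b1, Atp1b2 and Pmp22, at 0.15, 0.19 and 0.39. Nefh stood nearest to Bcat1, Map1b (an axonal microtubule protein) and Tpt1, at 0.21, 0.23 and 0.28. Genes near Ina included Sept7 and Rsrp1, at 0.21 and 0.28, and Prph stood nearest to Ube2r2, Chpt1 and Penk (proenkephalin), at 0.034, 0.081 and 0.099. The measure follows level and fold together.

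Over the 6 ac4C lists, 36 other named genes shared the Nefm pattern of controls 1 and 3 alone, and Map1b was second among them by summed log10 p, after Vps72. The Nefl pattern was shared by 15 genes, among them Syt2, Pafah1b1, Rps23 and Cltc. The Ina pattern was shared by 14 genes, led by Prpf8, Fam208a, Lrp1, Adarb1 and Aak1. The Nefh pattern of control 3 alone was shared by 355 genes, and 5386 of the 8564 genes with a unique symbol had, like Prph, no peak in any list.

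Of 18 other intermediate filament genes, 5 had a row in the RIP table (Gfap, Vim, Synm, Lmna and Iffo1), with a median log2 fold of 2.27 in the authors' deposited table. Gfap, the filament of astrocytes, was highest at 2.50 and Vim lowest at 2.00, so none of them was as low as Ina. Gfap, Vim and Lmna, a nuclear lamina gene, each had a peak in 1 control list and 0 bone cancer pain lists, and none had a peak in 2 lists. Over the named genes, the share called in any list was 36.9%, and the share called in 2 or more was 12.6%. The share called in 1 control list and 0 bone cancer pain lists is not given here. No difference between groups is therefore read from Gfap, Vim and Lmna. A gene without a row may have been below the table's threshold or not expressed.

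Of 10 genes for proteins that carry or link neurofilaments, 10 had a peak in at least 1 list and 8 in at least 2, where 36.9% and 12.6% of all named genes did. The 10 were not matched for RIP input signal, and no test was made of these counts. The share of genes with any peak rose with input signal, from 19.7% in the lowest bin to 59.4% in the highest. Shares by bin for at least 2 lists are not given here. Kif5a, the kinesin that moves neurofilaments, and the cytoskeletal linkers Macf1 and Plec had a peak in all 6 lists. Counting controls first and bone cancer pain second, Dst had 2 and 2 lists, Kif5c 2 and 1, and Kif5b and Myo5a 1 and 1. Dync1h1, the dynein heavy chain, had 2 and 0. It was the only 1 of the 10 called in at least 2 controls and 0 bone cancer pain lists, as were 1.70% of all named genes. The median log2 fold of the 10 genes in the authors' deposited table was 2.64, from 1.22 for Dynll1 to 3.02 for Fez1. Transcript length, on which the chance of a call may depend, was not analysed here.

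Of 16 other axonal cytoskeleton genes in the table, 13 had a peak in at least 1 list and 7 in at least 2, where 36.9% and 12.6% of all named genes did. The 16 were not matched for RIP input signal, and their counts were not tested. Their input signals ran from 5.80 (Tubb2a, input 1) to 111 (Map1b, input 2). In the highest bin of input signal 59.4% of genes had any peak, and in the next bin 53.5%. Mapt (tau), Map1a, Sptan1 and Ank3 were each called in 2 controls and 3 bone cancer pain replicates, Ank2 in 3 and 2, and Sptbn1 in 2 and 1. Map1b was called in 2 and 0. It was the only 1 of the 16 with at least 2 controls and 0 bone cancer pain lists, as 1.70% of all named genes had. The median log2 fold of the 16 was 2.62 in the authors' deposited table, with Map6 lowest at 2.05 and Tuba4a highest at 3.01, and 11 of 16 were above the median of all genes, against 0 of the 5 filament genes.

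Kinases and phosphatases that act on neurofilament tails all had a row (15 of 15), with a median log2 fold of 2.41 in the authors' deposited table. Rock2 was called in 2 controls and 2 bone cancer pain replicates, and Mapk3 in 0 and 2. At least 2 bone cancer pain lists and 0 controls were called for 1.80% of all named genes. Of the 15, 5 had a peak in at least 1 list, a share near the 36.9% of all named genes. Of 6 RNA-binding or related genes tied to neurofilament mRNA, 4 had a peak in 2 or more lists (against 12.6% of all named genes). Among them were Hnrnpk in 1 control and 2 bone cancer pain replicates, Elavl4 in 0 and 2 (the pattern of 1.80% of named genes), and Sod1 in 1 and 1. Neither the 15 nor the 6 were matched for input signal, and no test was made of their counts. Arhgef28 was highest of the 6 in log2 fold at 2.81 and Elavl4 lowest at 1.69 in the authors' deposited table. Of 8 turnover genes 6 had a row, with a median of 2.49, from Capn1 at 1.88 to Uchl1 at 2.61, and none had a peak in 2 lists.

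Neuronal markers mostly lay below the RIP table's median fold, with 1 of 6 above it, and the filament genes had 0 of 5 above. The 6 neuronal markers of 9 with a row had a median log2 fold of 1.95 in the authors' deposited table, from Rbfox3 (NeuN) at 1.55 to Uchl1 at 2.61. Of 6 motor neuron markers, Slc5a7, Slc18a3 and Chat had a row, at 1.34, 1.64 and 1.95, and of 6 sensory ganglion markers Calca alone, at 2.09. All 8 oligodendrocyte markers had a row and were higher, at 2.98 to 3.56, as were the 5 of 6 microglial markers with one, at 2.43 to 3.26. The 6 astrocyte markers had a median of 2.38. In tissue pieces of mixed cells, fewer cells of a type and less RNA per cell cannot be told apart in the signal of a library. The part of cell type in the folds of the filament genes was not tested.

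Markers of peripheral nerve were also in these libraries. All 5 Schwann cell markers had a row, at log2 folds of 2.07 to 2.48 in the authors' deposited table. The part of nerve root tissue in the filament signal was not tested.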

How the data were processed

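The build was rn6, and DESeq2, featureCounts 1.6.3, HOMER 4.10.4, HISAT2 2.1.0 and cutadapt 2.5 are named without a role, per the submitters' processing notes. No source used here names the peak caller. Each ac4C peak carries a p-value, log10 scores of p and FDR, and a ratio (fold enrichment) from the authors, per the file headers. The authors deposited 4 normalised signal values per RIP gene, with a log2 fold, p-value and FDR. They did so only for genes above a log2 fold of 1 and with their own p-value below 0.05 (largest 0.0488). IP was therefore not tested against input again. Read depth is unknown.

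Computed here with Python 3.11.15, pandas 2.3.3 and scipy 1.17.1: peak starts were shifted by 1 to count from 1, peaks were kept at an FDR of at most 0.05, and the lists holding a peak were compared per gene by two-sided Fisher's exact test (3 against 3). Peaks overlapped when blocks on 1 strand shared at least 1 base. The functions were tested on simulated data. Named genes were the 5 members, the 3 nearest genes per member, the first 5 genes sharing a peak pattern, and, of each partner list, genes with peaks in at least 2 lists and the highest and lowest RIP fold; other list members named in the text were chosen after their values were seen, and some genes that the rule selects are not reported here. Members and lists were chosen with earlier results of these data known. Nothing says which replicates are single rats, so the Fisher's exact and sign-flip p-values speak only of these samples. The p-value of a peak belongs to 1 IP and input pair and measures no spread between replicates. Alternatives were other FDR limits, equal list lengths, left-out lists, a stricter overlap, single RIP pairs, a pseudocount of 1, median scaling and a filter on input signal. Peak sequences need an rn6 genome and were not analysed here.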

Additional observations from a re-analysis of the deposited data

How the results depend on the processing

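No call could be gained or lost, since no gene could pass Fisher's exact test with 3 lists a group. With all peaks as deposited, at an FDR of at most 0.01 and at an equal length of 899 peaks per list, 4 of the 5 genes kept a peak in at least 1 list. The difference in lists (bone cancer pain minus control) was 1 for Nefl, -2 for Nefm, -1 for Nefh, 1 for Ina and 0 for Prph. An FDR limit of 0.01 brought Ina to 0, because its bone cancer pain 1 peak was lost. Leaving out each list in turn gave 3 to 4 genes with a peak and differences of 0 to 2 for Nefl, -2 to -1 for Nefm, -1 to 0 for Nefh and 0 to 2 for Ina. Nefl came to 0 without bone cancer pain 2 or 3, Ina came to 0 without bone cancer pain 1 or 2, and Nefh came to 0, with no peak left, without control 3. The count of control peaks minus bone cancer pain peaks, 4 with all lists, was -2 to 7 when each list was left out, a check chosen after seeing the data, and it turned to -2 without control 3.

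With same-numbered lists as a replicate block the differences were the same (-2 for Nefm, exact sign-flip p = 0.5). Same-numbered lists shared a number only: the correlations of their deviations over genes were -0.00565, 0.0113 and -0.00293. For the RIP, the mean log2 ratio of the 2 pairs (paired by number) was 1.41 for Ina and 2.11 for the median member. The deviations of IP 1 and input 1 had a correlation of -0.0294 over the 8671 genes. Single pairs gave a median of 2.06 to 2.16, and a pseudocount of 1 gave 2.05. That pseudocount took Prph from 2.11 to 2.02, below Nefm at 2.05. The move of Prph was larger than the standard deviation of its 2 pairs (0.0748) and smaller than the difference of 0.11 between them. Each gene stayed below the median gene after median scaling and among genes with input above the median. Requiring an overlap of 50% of the shorter peak left 5 of 6 overlapping pairs and 3 genes with one.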
